A study of Mus musculus with 6 samples.

Results

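Granzymes are serine proteases that cytotoxic T cells and natural killer cells store in lytic granules and release onto target cells, which they enter with the help of the pore-forming protein perforin. Granzyme B cuts after acidic residues and activates caspases and Bid, granzymes A and K cut after basic residues, and granzyme M prefers methionine and leucine. In mice the genes lie in 3 clusters, and the cluster that holds the granzyme B gene also holds a series of rodent genes, Gzmc to Gzmg and Gzmn, whose proteins are less well understood. The family described here is the 10 mouse genes Gzma, Gzmb, Gzmc, Gzmd, Gzme, Gzmf, Gzmg, Gzmk, Gzmm and Gzmn, found by exact gene symbol among the annotated probe sets. A probe set of its own was found for 9 of the 10, out of 22180 genes in all. The symbol Gzme occurred on 1 probe set, which also lists Gzmd, so Gzme has no value here. Of the 9, 6 lie on chromosome 14, 2 on chromosome 13 and 1 on chromosome 10, and each had 1 probe set.

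The study compared mouse splenic CD8+ T cells in 2 culture conditions. Sorted naive cells were stimulated for 4 days with antibodies to CD3 (1 µg/ml) and CD28 (3 µg/ml). The Tc1 group received IL-12 and the Tc17 group IL-6 with TGFb, in each case for 3 days, and both groups then received IL-2 for 1 day; the labels do not say how these days overlap with the stimulation. There were 3 single-colour Affymetrix arrays per group: biological samples 1 and 2, and a technical array that was read as a repeat of sample 2 and averaged with it, which left 2 samples per group. The labels give no mouse strain, age or sex. The labels do not say that the samples came from separate animals, so p-values measure the spread between these samples.

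Values are log2 intensities, and a difference of 1 is a 2-fold ratio of intensities. The 41345 probe sets had array medians from 6.04 to 6.09, and no array gave a detection call, so a gene below these medians cannot be told from one without signal. The T cell genes of the label were bright in all samples: none of 9 measured markers (such as Cd3e, Cd8a and Cd8b1) was called by limma (3 had an unadjusted p under 0.05: Cd2 and Cd5 higher and Cd28 lower in Tc17), and their mean level ran from 11.85 to 11.96 over the 4 samples. Among markers of other cells that use granule proteases, the natural killer cell genes Ncr1, Klrb1c and Klrb1b lay below every array median, 0 of 6 measured markers were called by limma (3 had an unadjusted p under 0.05, all higher in Tc17), and their mean level was 5.64 and 5.69 in the Tc1 samples and 6.18 and 6.13 in the Tc17 samples. Of 10 mast cell and basophil markers 9 lay below every array median, and Kit was called higher in Tc17 (9.41, 9.40 and 9.13 in Tc1, 10.67, 10.60 and 10.69 in Tc17), though not without any 1 of the 4 samples. Over all genes 1.58% were called in either direction, so few or no calls in lists this short say little. The part of other cells in the granzyme results was not tested. In these bulk cultures fewer cells of a type and less RNA per cell cannot be told apart.

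Every measured granzyme gene had a lower mean in Tc17 than in Tc1, except that the difference of Gzmm was above 0 without Tc1 sample 1 and that of Gzmn without Tc17 sample 1. The members differed widely in how far and how reproducibly. Gzmk and Gzmf fell in limma's moderated test at a Benjamini-Hochberg adjusted p of 0.05, which is 2 of 9 members, against 0.591% of all genes called lower, and none was called higher, against 0.992% (1.58% of genes and 1.01% of probe sets were called in either direction). The log2 difference was −1 or lower in 6 of the 9, against 0.897% of all genes, and in 7 of the 9 the 3 Tc17 arrays all lay below the 3 Tc1 arrays, against 14.5% of all genes. The median difference of the family was −1.58, beside −0.01 over all genes. By cluster it was −3.27 for the 2 genes on chromosome 13, −1.58 for the 6 on chromosome 14 and −0.10 for Gzmm on chromosome 10. Gzmd and Gzmf, which set the family and chromosome 14 medians, lay below every array median on all Tc17 arrays, which limits how far they could fall, and over the 5 members with a mean above the median of all probe sets the family median was −2.48. Without Tc17 sample 1 the median of the family was −1.27, and without Tc17 sample 2 it was −1.79. It was −1.66 and −1.50 without Tc1 sample 1 or Tc1 sample 2. Which members were called changed with the sample left out, as the spread then came from the other group alone. An exact permutation test on 2 against 2 samples cannot give a two-sided p below 0.333, and that was its value for the 7 genes whose arrays did not overlap.

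**Figure D1:**
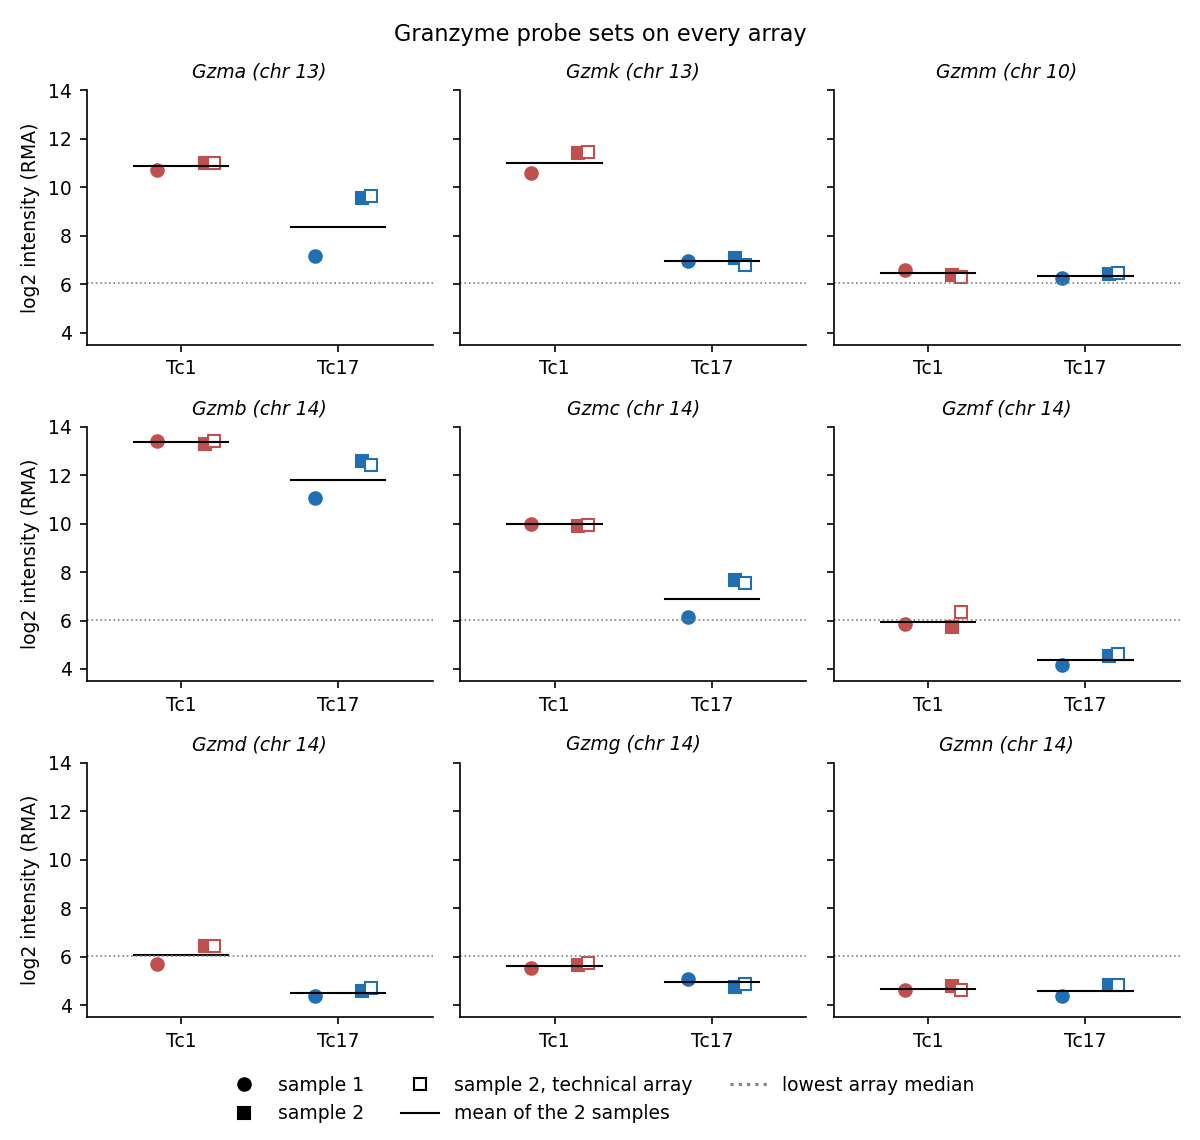
Log2 intensity of the 9 measured granzyme genes on each of the 6 arrays, with 1 panel per gene; circles are sample 1, squares sample 2, open squares its technical array, bars the mean of the 2 samples, and the dotted line the lowest array median (6.04). Gzma, Gzmb and Gzmc show a gap between the Tc17 samples, with sample 1 lower, whereas the 3 Tc17 arrays of Gzmk lie together between 6.80 and 7.09.

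Gzmk encodes granzyme K, a tryptase-like granzyme. In Tc1, sample 1 was at 10.61 and sample 2 at 11.41 and 11.47 on its biological and technical arrays. In Tc17, sample 1 was at 6.97 and sample 2 at 7.09 and 6.80. The groups stood far apart, and the Tc17 arrays were the tighter group. The log2 difference was −4.07 ± 0.28 (SE, 95% interval −4.81 to −3.32, limma adjusted p = 0.0158). The fall was of the same size with either Tc17 sample alone, −4.06 with sample 1 and −4.08 with sample 2 against the Tc1 mean, although the adjusted p was then 0.0855 and 0.0966. The intensity was 16.8-fold lower, and the Tc17 arrays were not far above the array medians.

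Gzma, which encodes granzyme A, the other tryptase of that locus, behaved differently. In Tc1, sample 1 was at 10.73 and sample 2 at 11.003 and 10.99. In Tc17, sample 1 was at 7.18 and sample 2 at 9.55 and 9.63. The Tc17 arrays all lay below the Tc1 arrays, but Tc17 sample 2 lay closer to the Tc1 samples than to Tc17 sample 1. The difference from the Tc1 mean was −3.69 in Tc17 sample 1 and −1.27 in Tc17 sample 2, and the group difference of −2.48 ± 0.80 (SE, 95% interval −4.59 to −0.37) did not pass (limma adjusted p = 0.308). A fit without Tc17 sample 1 or Tc17 sample 2 drops the spread between the Tc17 samples and cannot decide whether the group difference holds. Relative to Gzma, Gzmk changed by −0.37 in Tc17 sample 1 and by −2.81 in Tc17 sample 2, on the log2 scale.

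The 300-base windows around the starts of these chromosome 13 genes are printed below. No link between the letters of the windows and the values was tested. All 10 family members matched an entry of the RefSeq promoter table (GRCm38.p6, 250 bases before to 50 after the gene start), with 11 windows since Gzmm had 2. Capitals mark matches, on either strand, to GGTGTGA (T-box), TGTGGT (RUNX), TGANTCA (AP-1), TGACG (a CRE half-site), TTCNNNGAA (STAT) or CAGACA (SMAD). Gzmk lies at chr13:113180916-113181215 and Gzma at chr13:113100932-113101231, both on the minus strand and printed 5′ to 3′ in the direction of transcription.
Gzmk: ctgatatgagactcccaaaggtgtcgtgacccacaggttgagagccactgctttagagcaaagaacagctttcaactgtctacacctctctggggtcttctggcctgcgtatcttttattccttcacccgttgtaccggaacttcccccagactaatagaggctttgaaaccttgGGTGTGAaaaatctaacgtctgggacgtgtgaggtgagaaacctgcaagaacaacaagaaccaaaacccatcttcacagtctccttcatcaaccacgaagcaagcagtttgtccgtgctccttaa
Gzma: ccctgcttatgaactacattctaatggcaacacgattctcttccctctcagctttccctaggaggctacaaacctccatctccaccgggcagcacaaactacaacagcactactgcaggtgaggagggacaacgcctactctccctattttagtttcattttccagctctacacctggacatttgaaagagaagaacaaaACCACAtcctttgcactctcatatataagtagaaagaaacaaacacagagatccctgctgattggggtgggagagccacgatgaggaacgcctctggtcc
The Gzmk window held 1 match, to the T-box letters, starting 75 bases before the gene start, a match that 3.98% of 32851 promoter windows of this length hold. These letters were found in 2 of the 11 granzyme windows, the other being a window of Gzmm, 189 bases before its start. The difference of Gzmm was −0.10. The Gzma window held 1 match, to the RUNX letters, 50 bases before the start, found in 16.8% of all windows. A match of letters is a description of the window and not a binding site.

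The measured genes next to the granzymes on chromosome 13, Gpx8 and Esm1, also had low Tc17 values. They were the 2 called lower of the 8 nearest measured neighbours, against 0.591% of all genes. In the RefSeq gene order, Gpx8, Gzma, Gzmk and Esm1 are consecutive among genes with a probe set. All 4 had lower values on every Tc17 array than on any Tc1 array, as did 14.5% of all genes. Gpx8, which encodes a glutathione peroxidase family member of the endoplasmic reticulum, measured 8.34, 8.84 and 8.93 on the Tc1 arrays and 5.84, 6.50 and 6.24 on the Tc17 arrays. Its difference was −2.51 ± 0.26 (SE, limma adjusted p = 0.0387), and it was not called without any 1 of the 4 samples (limma adjusted p from 0.0873 to 0.146). Esm1, which encodes the secreted proteoglycan endocan, measured 9.67, 9.73 and 9.62 on the Tc1 arrays and 6.15, 5.71 and 5.73 on the Tc17 arrays. Its difference was −3.74 ± 0.16 (SE, limma adjusted p = 0.0056), with an adjusted p of 0.0536 without Tc1 sample 2 and from 0.0177 to 0.0455 without each of the others.

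The next measured genes on either side of those 4 were not called. Before Gpx8 came the microRNA genes Mir449c, Mir449b and Mir449a, and after Esm1 came Cspg4b, 4921509O07Rik and Snx18, and these 6 had differences between −0.37 and 0.00. Mir449c, Mir449a, Cspg4b and 4921509O07Rik lay below every array median on every array, where expression is uncertain and a fall may be missed. The Tc17 arrays of 4921509O07Rik all lay below its Tc1 arrays. Snx18, which encodes a sorting nexin, had the lowest of the 6 and was expressed in both groups, at 10.38, 11.10 and 11.14 in Tc1 and 10.16, 10.51 and 10.66 in Tc17. The 1 RefSeq gene between Gzma and Gzmk, a non-coding RNA gene, had no probe set, and others without a probe set lie further out.

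**Figure D2:**
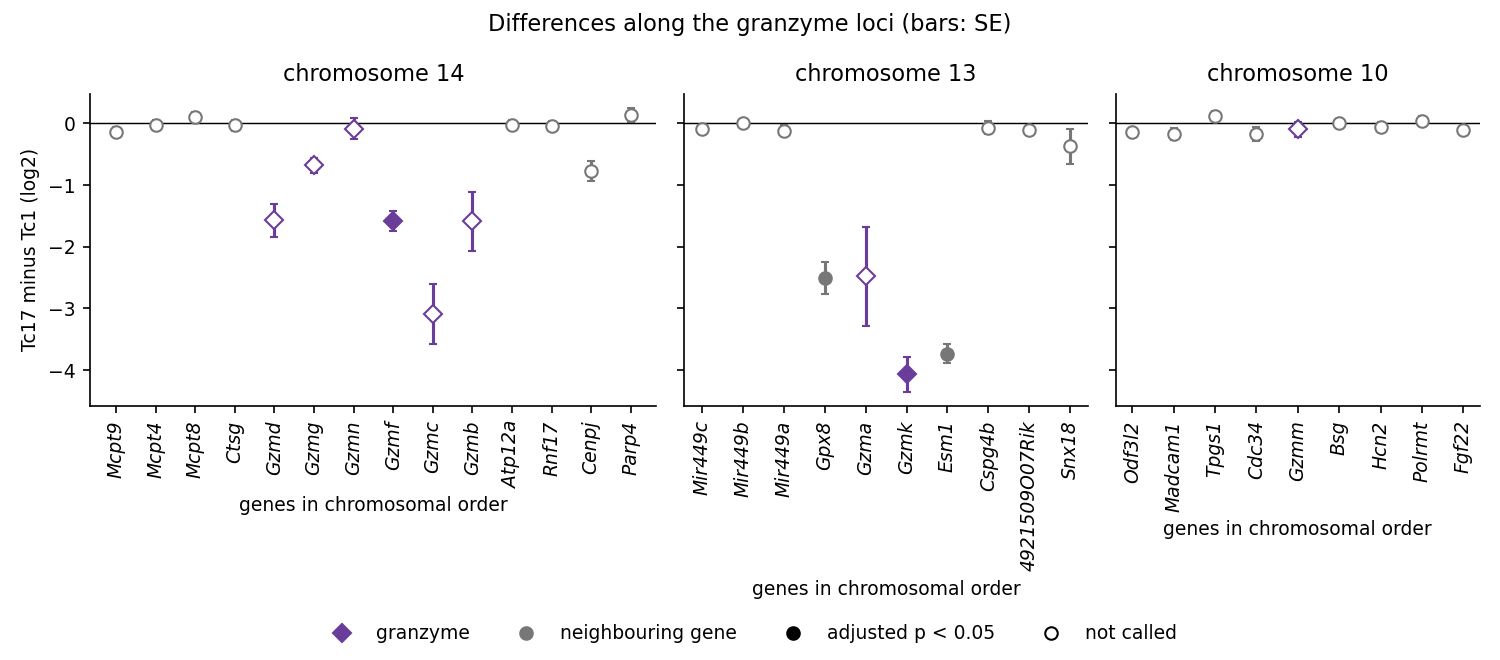
Log2 difference, Tc17 minus Tc1, with its SE, for granzyme genes (diamonds) and their nearest measured neighbours (circles) in RefSeq gene order; filled symbols passed the limma adjusted p of 0.05. On chromosome 13 the low values run from Gpx8 to Esm1, and on chromosome 14 Gzmd to Gzmb lie low apart from Gzmn, the neighbouring proteases lie near 0 and Cenpj lies at −0.78.

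Gzmb, which encodes granzyme B, is the granzyme most closely tied to caspase activation. In Tc1, sample 1 was at 13.42 and sample 2 at 13.28 and 13.40. In Tc17, sample 1 was at 11.07 and sample 2 at 12.60 and 12.43. The Tc1 arrays lay close together, and all Tc17 arrays were lower. The difference from the Tc1 mean was −2.31 in Tc17 sample 1, a 4.97-fold lower intensity, and −0.86 in Tc17 sample 2, a 1.82-fold lower intensity. The group difference, −1.59 ± 0.48 (SE, 95% interval −2.86 to −0.32), did not pass (limma adjusted p = 0.284). A fit without Tc17 sample 2 drops the spread between the Tc17 samples and cannot decide this. Even the lowest Gzmb value, in Tc17 sample 1, lay well above the array medians.

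Gzmc, the measured gene nearest to Gzmb in the cluster, had the largest difference on chromosome 14. In Tc1, sample 1 was at 10.002 and sample 2 at 9.91 and 9.95. In Tc17, sample 1 was at 6.13 and sample 2 at 7.68 and 7.55. The Tc17 samples differed from each other by about as much as those of Gzmb, but both were far below Tc1, by −3.83 and −2.35. The group difference of −3.09 ± 0.49 (SE, 95% interval −4.39 to −1.80) did not pass (limma adjusted p = 0.0951). It was −2.35 without Tc17 sample 1 and −3.83 without Tc17 sample 2, and −3.06 and −3.13 without Tc1 sample 1 or 2. With a Tc17 sample left out, the spread could be taken only from the Tc1 samples, which lay close together.

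The other measured genes of that cluster were dim. Gzmf measured 5.86, 5.72 and 6.33 on the Tc1 arrays and 4.16, 4.54 and 4.61 on the Tc17 arrays, and its difference of −1.58 ± 0.16 (SE) passed (limma adjusted p = 0.0377). It was not called without any 1 of the 4 samples (limma adjusted p from 0.0574 to 0.160), and its Tc1 biological and technical arrays of sample 2 differed by 0.61, more than in 99.8% of genes. Gzmd measured 5.71, 6.43 and 6.45 in Tc1 and 4.37, 4.57 and 4.71 in Tc17, with a difference of −1.57 ± 0.27 (SE, limma adjusted p = 0.107). Gzmg measured 5.54, 5.66 and 5.74 against 5.08, 4.74 and 4.86, a difference of −0.68 ± 0.13 (SE, limma adjusted p = 0.131). Gzmd, Gzmf, Gzmg and Gzmn lay below every array median on all Tc17 arrays, and Gzmg and Gzmn on all 6 arrays, so signal above background was not shown there. These genes are close copies of each other, and their probe sets may share signal.

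Gzmn and Gzmm had overlapping groups. Gzmn, a granzyme gene best known from testis, measured 4.64, 4.81 and 4.63 in Tc1 and 4.36, 4.84 and 4.82 in Tc17, and its difference of −0.09 had a 95% interval from −0.54 to 0.36 (limma adjusted p = 0.888). Gzmm, the gene of granzyme M, measured 6.58, 6.37 and 6.29 in Tc1 and 6.27, 6.42 and 6.47 in Tc17. Its difference of −0.10 had an interval from −0.42 to 0.23 (limma adjusted p = 0.816). Its 8 nearest measured neighbours, from Odf3l2 to Fgf22, had differences between −0.17 and 0.13, and 0 of them were called by limma (0 with an unadjusted p under 0.05). Over all genes 1.58% were called in either direction.

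Beside the granzyme run on chromosome 14, none of the 8 nearest measured neighbours was called by limma, against 1.58% of all genes called in either direction. On one side lie the serine protease genes of mast cells and myeloid cells, Ctsg, Mcpt8, Mcpt4 and Mcpt9 being the nearest. All 8 measured protease genes on that side lay below every array median on every array. Expression is uncertain at that level and a fall may be missed. The differences of these 8 ran from −0.14 to 0.11, with a median of −0.05. Gzmg and Gzmn also lay below every array median on all 6 arrays. They had differences of −0.68 and −0.09, and only Gzmg had all Tc17 arrays below its Tc1 arrays. On the other side Atp12a, Rnf17 and Parp4 had differences between −0.05 and 0.14. Cenpj, a centriole assembly gene on that side, was at 8.63, 8.89 and 8.94 in Tc1 and 7.83, 8.20 and 8.12 in Tc17 and its difference, −0.78, missed the threshold (limma adjusted p = 0.156). Its Tc17 arrays all lay below its Tc1 arrays, as those of Gzmg did, and it was the 1 neighbour of the 8 with an unadjusted p under 0.05. Inside the run, 9 RefSeq genes, Gzme among them, had no probe set of their own.

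The windows of the chromosome 14 granzymes are shown because that of Gzmb holds matches to several of the searched motifs and because 5 others share sequence. The windows are Gzmb at chr14:56262285-56262584 and Gzmc at chr14:56234608-56234907, on the minus strand and printed as above.
Gzmb: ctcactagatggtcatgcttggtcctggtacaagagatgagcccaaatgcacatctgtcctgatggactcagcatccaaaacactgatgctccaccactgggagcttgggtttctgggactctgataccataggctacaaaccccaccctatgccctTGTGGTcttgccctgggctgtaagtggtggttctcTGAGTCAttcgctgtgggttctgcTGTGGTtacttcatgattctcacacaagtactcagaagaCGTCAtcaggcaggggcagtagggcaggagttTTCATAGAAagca
Gzmc: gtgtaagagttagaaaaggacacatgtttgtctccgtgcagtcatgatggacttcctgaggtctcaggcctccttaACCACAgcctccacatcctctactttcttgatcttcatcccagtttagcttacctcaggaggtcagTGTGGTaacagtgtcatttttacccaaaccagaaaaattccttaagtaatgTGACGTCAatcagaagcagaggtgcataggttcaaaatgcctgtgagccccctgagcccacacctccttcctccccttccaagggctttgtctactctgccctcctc
Gzmb held RUNX matches starting 93 and 34 bases before the gene start and an AP-1 match 58 bases before it, letters found in 16.8% and 7.81% of all windows. Its CRE half-site and STAT matches lay after the start. Gzmc held RUNX matches 174 and 108 bases before the start and overlapping CRE half-site matches on opposite strands, 57 and 54 bases before it. RUNX matches were found in 8 of the 11 granzyme windows, but the chromosome 14 genes share sequence, so these are not independent.

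The shared stretch is shown for 5 genes, 70 bases each from the RUNX match nearer to the start, with capitals as above. The places are Gzmc at chr14:56234696-56234765, Gzmd at chr14:56132636-56132705, Gzme at chr14:56120669-56120738, Gzmf at chr14:56211471-56211540 and Gzmg at chr14:56159638-56159707, all on the minus strand of GRCm38.p6.
Gzmc: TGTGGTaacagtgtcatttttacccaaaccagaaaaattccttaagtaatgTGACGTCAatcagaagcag
Gzmd: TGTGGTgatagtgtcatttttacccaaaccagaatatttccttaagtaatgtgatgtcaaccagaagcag
Gzme: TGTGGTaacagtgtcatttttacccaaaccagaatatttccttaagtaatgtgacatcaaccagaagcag
Gzmf: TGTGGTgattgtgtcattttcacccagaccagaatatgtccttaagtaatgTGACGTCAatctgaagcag
Gzmg: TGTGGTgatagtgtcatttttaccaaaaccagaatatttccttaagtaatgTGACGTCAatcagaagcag
Each stretch begins with the RUNX letters because it was taken from there. Gzmc, Gzmf and Gzmg have the 2 overlapping CRE half-sites, found singly or together in 20.8% of all windows, whereas Gzmd and Gzme have no match there. Over whole windows the closest were Gzmd and Gzme, with 93.4% identical columns in a global alignment, followed by Gzmf and Gzmg with 84.8%. Among these 5 the least alike were Gzmc and Gzmf, with 74.6%. Gzmn, in the middle of the run, had none of the RUNX or CRE letters.

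The spread between the Tc17 samples was itself among the largest on the arrays for 3 granzymes. The difference between Tc17 sample 1 and Tc17 sample 2 was −2.41 for Gzma, −1.48 for Gzmc and −1.45 for Gzmb, which ranked 2, 11 and 13 in size among 22180 genes. A difference of at least 1 was found for 48 genes between the Tc17 samples, 0.216% of all, with sample 1 the lower in 0.0947% of all genes, and for 0.261% between the Tc1 samples. The median size over all genes was 0.09. Those 3 genes showed no such gap between the Tc1 samples, where the differences were −0.26, 0.07 and 0.08. The repeat arrays of Tc17 sample 2 differed by −0.08 for Gzma, 0.13 for Gzmc and 0.18 for Gzmb. With the technical array read as a repeat of sample 2, these differences leave out the spread between cultures. The labels do not say which step was repeated. Gzmk showed the reverse arrangement, with a gap of −0.83 between the Tc1 samples and of 0.03 between the Tc17 samples.

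Other genes, picked after the values were seen, also differed widely between the Tc17 samples. Klrb1f, Klra5 and Slamf6, genes of lymphocyte surface receptors, ran the same way as Gzma, at −1.73, −1.70 and −1.59, and unlike the 3 granzymes they also differed between the Tc1 samples, at −1.60, −2.09 and −1.11. Il1a and Il1b, the interleukin 1 genes, ran the opposite way and were 2.48 and 2.28 higher in Tc17 sample 1. The lectin receptor genes Clec4e and Clec7a and the gene Wfdc17 were also among the 15 largest, higher in sample 1 by 1.48, 1.40 and 1.49. The others of the 15 were Slc15a3, H2-M2, Il23r and Cxcl3, also higher in sample 1, by 1.52, 1.51, 1.49 and 1.44. The 8 macrophage and monocyte markers had a mean level of 6.95 in Tc17 sample 1 and 6.84 in Tc17 sample 2, against 6.18 and 6.35 in the Tc1 samples, with Lyz2 called higher in Tc17 (limma adjusted p = 0.00594, and 0.055 without Tc1 sample 2) and 3 of the 8 below every array median. Lyz2 was the 1 called of the 8, and over all genes 0.992% were called higher. The part of these markers in the granzyme gap was not tested.

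**Figure D3:**
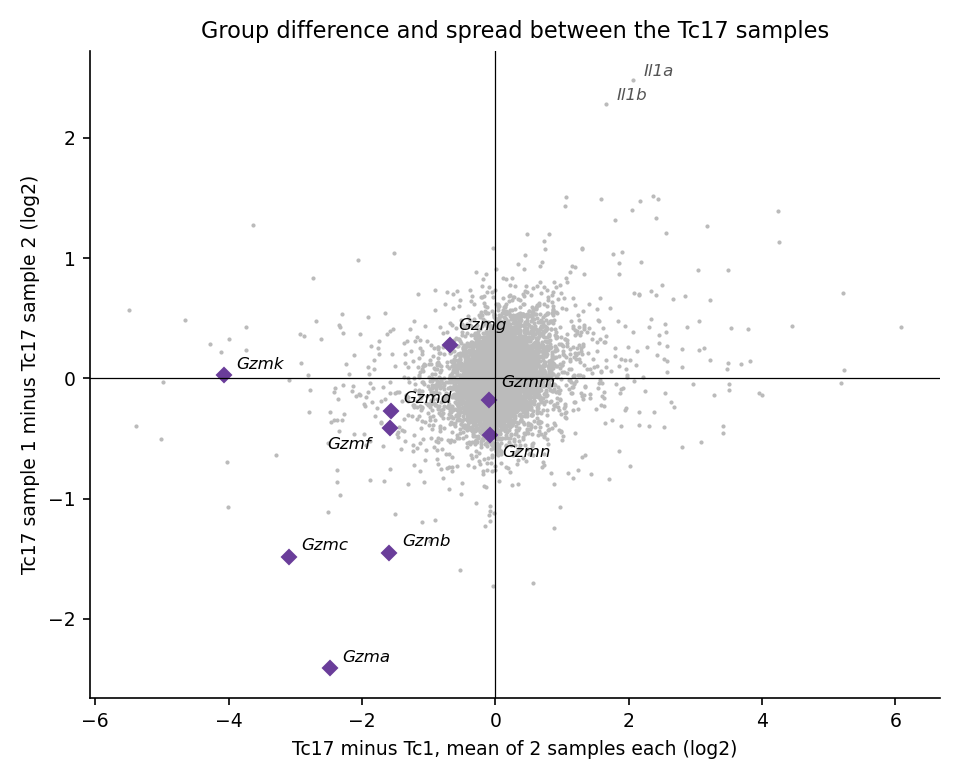
Each point is 1 of 22180 genes; the horizontal axis is the log2 difference Tc17 minus Tc1 and the vertical axis the log2 difference between Tc17 sample 1 and Tc17 sample 2. Gzma, Gzmc and Gzmb lie far below the bulk of genes, at −2.41, −1.48 and −1.45 on the vertical axis, while Gzmk lies near 0 on the vertical axis with the lowest group difference of the family.

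Genes whose 4 sample values ran most like those of a granzyme were found by Euclidean distance over the 4 samples, each gene centred on its own mean. For Gzmb the closest was P2rx7, the gene of an ATP-gated channel, at a distance of 0.26 on the log2 scale, with 10.29 and 10.07 in the Tc1 samples and 8.12 and 9.24 in the Tc17 samples. Next came 1500009L16Rik, Plac8, Cmtm7 and Pglyrp1, at 0.49 to 0.65. For Gzma the closest was Gzmc (0.93), followed by Itih5, Gzmb, the transcription factor gene Prdm1 and Mndal (1.04 to 1.21). For Gzmc they were Itih5, Gzma, P2ry14, Prdm1 and Gpx8 (0.86 to 0.99). For Gzmk they were Ms4a4b, Gbp7, Ly6c2, Me1 and the serpin gene Serpinb9 (0.58 to 0.73). The distance counts the size of the group difference as well as its shape, and these 5 had differences from −4.28 to −3.74. With 4 samples this likeness is a description of the samples.

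Genes that act with granzymes were read from lists of known roles. Of 9 genes of granzyme maturation and storage, 2 fell and none rose, against 0.591% and 0.992% of all genes. Their median difference was 0.13. Ctsc, whose protease product trims granzymes to their active form, and Srgn, which encodes the proteoglycan serglycin that holds them in the granule, had differences of 0.13 and 0.12 (limma adjusted p = 0.572 and 0.631). Ctsh, which encodes cathepsin H, a further protease that can trim granzyme B, had the largest difference among the uncalled, 0.49 (limma adjusted p = 0.0941), and lay below every array median on every array. The 2 that fell belong to mannose 6-phosphate sorting. Igf2r, which encodes the large mannose 6-phosphate receptor, measured 10.39, 10.53 and 10.52 in Tc1 and 9.44, 9.50 and 9.64 in Tc17, a difference of −0.96 ± 0.09 (SE, limma adjusted p = 0.0334). Gnptab, whose enzyme makes the mannose 6-phosphate tag, had a difference of −0.93 ± 0.09 (SE, limma adjusted p = 0.0334). Neither was called without any 1 of the 4 samples. M6pr, the gene of the small receptor, had a difference of −0.30 and did not pass.

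Of 13 genes of perforin and granule release, 4 fell and none rose, against 0.591% and 0.992% of all genes. Their median difference was −0.22. Prf1, the perforin gene, measured 12.36, 12.26 and 12.22 in Tc1 and 10.12, 9.94 and 10.06 in Tc17, so its Tc17 arrays lay close together where those of Gzmb did not. Its difference was −2.24 ± 0.09 (SE, limma adjusted p = 0.00495), and it was called without each of the 4 samples. Sytl2, whose protein docks granules at the membrane, measured 10.27, 10.69 and 10.71 against 5.94, 7.10 and 6.92, and like Gzma it was lower in Tc17 sample 1, with a gap of −1.07. Its difference was −4.01 ± 0.39 (SE, limma adjusted p = 0.0328). Sytl3, a relative of Sytl2, and Nkg7, which encodes a granule membrane protein, had differences of −1.13 and −1.11 (limma adjusted p = 0.0347 and 0.0174). Lyst and Stx11 had the largest differences among the uncalled, −0.74 and 0.68, and Rab27a and Unc13d, both needed for granule release, had −0.35 and −0.13. With 1 sample left out at a time, 1 or 2 of the 13 were called lower: Prf1 each time, and Sytl2 without Tc17 sample 2.

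Of 9 measured serpins that inhibit granzymes or are related to such inhibitors, 2 fell and none rose, against 0.591% and 0.992% of all genes. Their median difference was −0.13. Serpinb9, whose product inhibits granzyme B, measured 10.79, 10.73 and 10.57 in Tc1 and 6.89, 6.42 and 6.70 in Tc17, a difference of −4.00 ± 0.14 (SE, limma adjusted p = 0.00481). The other was Serpinb6b, at −4.66 ± 0.18 (SE, limma adjusted p = 0.00481). Neither showed the low value in Tc17 sample 1 that Gzmb had, and both were higher there, by 0.33 and 0.48. Serpinb6b had an adjusted p of 0.0503 without Tc1 sample 2. Serpinb9b and Serpinb9d had the largest differences among the uncalled, −1.34 and −0.16, and 5 of the 9, all relatives of Serpinb9, lay below every array median on every array. None of 12 measured granzyme substrates was called by limma, against 1.58% of all genes called in either direction. Of these 12, 4 had an unadjusted limma p under 0.05, all lower (Lmnb1, Bid, Hmgb2 and Gsdmd), and the median difference of the 12 was −0.10. Among them Nme1 and Lmnb1 had the largest differences, −0.63 and −0.57.

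**Figure D4:**
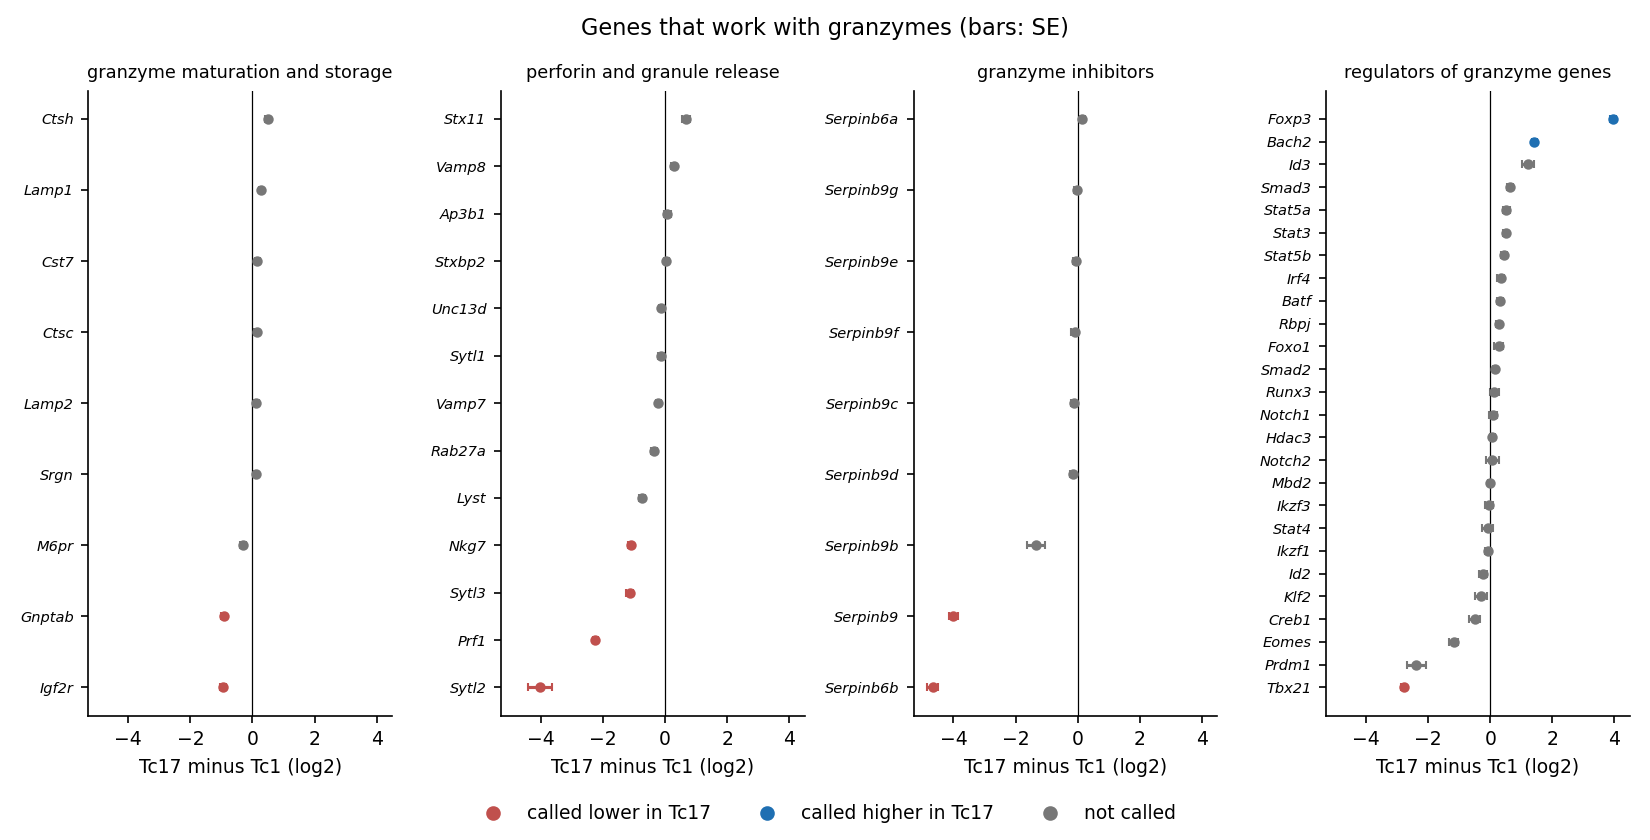
Log2 difference, Tc17 minus Tc1, with its SE for genes of 4 lists: granzyme maturation and storage, perforin and granule release, granzyme inhibitors, and regulators of granzyme genes. Serpinb6b, Sytl2 and Serpinb9 lie near or below −4, Prf1 lies at −2.24, and Ctsc and Srgn lie near 0.

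Of 26 measured regulators named for acting on granzyme genes, Tbx21 fell and Bach2 and Foxp3 rose. Over all genes 0.591% fell and 0.992% rose. The median difference of the list was 0.11. Tbx21, the gene of T-bet, which binds granzyme genes in cytotoxic cells, measured 11.42, 11.33 and 11.39 in Tc1 and 8.56, 8.67 and 8.63 in Tc17, a difference of −2.79 ± 0.08 (SE, limma adjusted p = 0.00272) with hardly any gap between the Tc17 samples. Foxp3, the regulatory T cell factor, measured 6.92, 6.88 and 6.64 against 10.73, 10.70 and 10.998 (limma adjusted p = 0.00213). Tbx21 and Foxp3 were called without each of the 4 samples, whereas Bach2 was lost each time. Prdm1, the gene of Blimp-1, measured 10.31, 10.90 and 10.70 against 7.79, 8.54 and 8.57, which missed the threshold (limma adjusted p = 0.0621). Its gap between the Tc17 samples, −0.76, ranked 111 of 22180 and ran the same way as that of Gzmb. Eomes, a T-box relative, had a difference of −1.18 (limma adjusted p = 0.0583), and Id3 one of 1.21 (limma adjusted p = 0.103). Runx3 and Stat4, further regulators of the cytotoxic programme, had differences of 0.14 and −0.07. Others of the list differed more without being called, such as Smad3 (0.64), Stat3 (0.50) and Creb1 (−0.50), with limma adjusted p = 0.0722, 0.0802 and 0.352. Of the 26, 10 had a difference below 0. Among receptors for the culture cytokines Il6ra and Tgfbr1 rose, by 2.67 and 0.97, 2 of 8 measured, though neither was called without any 1 of the 4 samples. None of the 8 was called lower, and over all genes 0.591% were called lower and 0.992% higher. The median difference of these receptors was −0.14, with 6 of 8 below 0. Il12rb2 and Il12rb1, the chains of the IL-12 receptor, and Il6st, the signalling chain for IL-6, had differences of −1.16, −0.48 and −0.79 (limma adjusted p = 0.158, 0.162 and 0.174), with every Tc17 array below the Tc1 arrays. The chains for IL-2 had differences of −0.01 (Il2ra) and −0.09 (Il2rb).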

How the data were processed

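Total RNA of cultured mouse CD8+ T cells was hybridised to Affymetrix arrays. The log2 intensities were deposited by the authors, and RMA and Partek are named, with no versions, per the submitters' processing notes. RMA corrects background, normalizes by quantiles and summarizes probes, which can compress large differences. Build and annotation release are not given in the sources used here. The number of arrays limits the precision.

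GEO's platform annotation gave the gene names. Each gene was read from 1 probe set, the brightest on average over 6 arrays among those with that symbol alone. The 2 samples per group were compared with limma 3.58.1 (R 4.3.3), using lmFit and eBayes and Benjamini-Hochberg adjustment over 41345 probe sets at 0.05. The fit was tested on simulated data. Gene order and promoter sequences came from RefSeq tables (GRCm38.p6), in which 21994 of 22180 genes matched by Entrez identifier.

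Members and lists were chosen with earlier results of these data known. By rule, the text names all granzymes, the 4 nearest measured genes on each side of a cluster, the 5 genes most like Gzma, Gzmb, Gzmc and Gzmk, and from each list up to 5 called genes and 2 uncalled ones that differed most. Others were named for their role or after their values were seen. Alternatives changed the arrays used, blocks, scaling, filters, moderation and probe set choice. Protein sequences were not analysed here.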

Additional observations from a re-analysis of the deposited data

How the results depend on the processing

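The count of granzymes called depended on the treatment of the samples. Of 9 members, 2 were called lower. The count was 5 with 6 arrays as separate samples, which counts a repeat array as a sample of its own. It was also 5 with the biological sample as a random block, where the estimated correlation of repeat arrays was 0.10. It was 4 with the replicate number as a block, 1 under both filters on level, which left 5 and 6 members, and 0 in limma without moderation (2 with an unadjusted p under 0.05). Averaging the probe sets of each gene before the fit gave 4. Each granzyme has 1 probe set, so its difference was unchanged, and moderation and adjustment then ran over 22180 genes. Leaving out each sample in turn gave 1 to 3, with the remaining sample of that group assumed to vary like the other group. Over all probe sets the count of 418 became 2318, 2074, 1535, 648, 635 and 0 (3968 with an unadjusted p under 0.05) with separate arrays, the random block, the replicate block, the filter at the median, the filter at 6 and no moderation, and 48 to 125 without 1 sample. The family median of −1.58 was −2.48 and −2.03 under the filters and −1.27 to −1.79 without 1 sample. The filter at 6 asked for a mean above 6 in either group, which Gzmd met in Tc1 alone (6.07, against 4.50 in Tc17). The median of −2.03 thus includes a member kept for its Tc1 level. The replicate numbers are shared by label only; their deviations correlated at 0.31 over probe sets, which 2 pairs cannot settle. Gzma, Gzmb, Gzmc, Gzmd, Gzmf, Gzmg and Gzmk had a negative difference in every setting that tested them. Gzmm and Gzmn were never called, and turned to 0.03 without Tc1 sample 1 and to 0.15 without Tc17 sample 1.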
